A study of Homo sapiens with 4 samples.

Results

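Ribosomal protein pseudogenes are the copies of ribosomal protein genes that the annotation names after their parent, such as RPL17P18 after RPL17. The members described here are the listed genes whose symbol is a ribosomal protein gene name followed by P and a number, with the true genes RPLP0, RPLP1 and RPLP2 left out, and the parent is the name without that ending. This gave 96 members of 11597 listed genes, under 95 symbols because RPL23AP7 is listed under 2 identifiers. They name 47 parents, 31 of the large and 16 of the small ribosomal subunit, and all 47 parents are listed too. The BTG2 libraries came from MOLM13, a human cell line of acute myeloid leukaemia, transduced with a lentiviral EF1α-IRES-Puromycin-T2A-ZsGreen vector that carried a BTG2 cDNA, and were set against MOLM13 libraries with the empty vector. Each group held 2 libraries, collected 3 days after transduction. Both groups therefore carried the virus, the puromycin resistance and the green fluorescent protein. The labels mention neither selection nor sorting and do not say whether each library had its own culture, and the p-values below may therefore measure technical spread.

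Cytosolic ribosomes are built from a large and a small subunit, and their proteins are among the most strongly expressed genes of a growing cell. Their messenger RNAs are short, abundant and often reverse transcribed into DNA by the enzymes of LINE elements. The inserted copies lack introns and usually a promoter of their own, and most are held to make no protein. Because such a processed pseudogene differs from its parent at few positions, a sequencing read from the parent can fit the copy nearly as well. BTG2 is an antiproliferative adaptor protein that brings the CCR4-NOT deadenylase to messenger RNA, and the study asked about its part in mRNA stability.

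The authors' deposited table gives for each gene a mean normalized count over the 4 libraries, a log2 fold change of BTG2 over empty vector with its standard error (SE), and an adjusted p-value. Values for single libraries were not analysed here, so the number of libraries that showed a direction, the depth and the spread between libraries are unknown. In the authors' deposited table BTG2 itself stood 32.3-fold higher, a log2 value of 5.01 (SE 0.09). Of 8 myeloid leukaemia markers 8 were listed, with mean counts between 158 and 6277, and of 6 markers of other cell types 0 were listed. A member is called here when the authors' adjusted p, taken over all listed genes, is under 0.05. How the authors' counting treated a read that fits several copies was not given in the sources used here. The count of a pseudogene below is therefore the count assigned to it, and reads of a near-identical parent cannot be told from its own.

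With BTG2, the counts of 31 of the 96 members (32.3%) were called higher and those of 0 lower. Across all listed genes 3.64% were called higher and 4.47% lower. The members' log2 fold changes had a median of 0.40, with quartiles of 0.04 and 0.89 and a range from -0.69 to 1.54, while the median over all listed genes was 0.00. Positive values were found in 76 members and negative ones in 20. The 31 called members lay between 0.19 and 1.54, and 11 of them reached a log2 fold change of 1, a size that 0.535% of listed genes reached with a call. At an adjusted p under 0.01 the members called higher numbered 26, against 2.42% of all listed genes.

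Most calls fell on members with higher mean counts. The members' mean counts ran from 7.09 to 94741 with a median of 108, against 151 over all listed genes. Of the 43 members with at least that count of 151, 25 were called higher (58.1%), while 6.02% of all listed genes at or above it were. Of the 53 members below it, 6 were called higher (11.3%), and the lowest mean count of a called member was 32.7. Another 16 members were not called although their log2 fold change was above 0.5. Their mean counts were at most 38.0 and their SE between 0.45 and 0.88. The largest value without a call was 1.14, in RPLP0P9, a copy of the gene for the ribosomal stalk protein RPLP0.

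**Figure D1:**
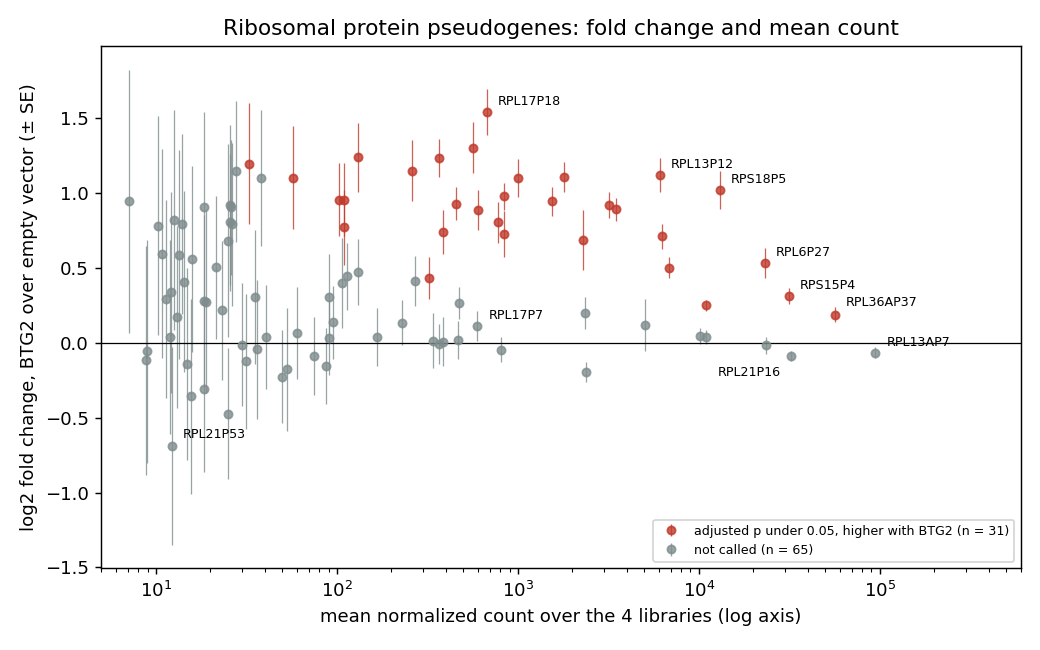
Log2 fold change of BTG2 over empty vector (vertical axis, bars ± the authors' SE) against the mean normalized count over the 4 libraries (horizontal log axis) for the 96 pseudogenes, 1 point each. The 31 called members, in red, all lie above 0, between 0.19 and 1.54, and the members with mean counts under 32.7 are all grey with wide bars.

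With a looser limit of 0.1 on the adjusted p, 31 members were higher and 2 lower, against 4.79% and 5.75% of all listed genes. Both lower members were copies of large-subunit genes with narrow errors. RPL23AP42 had a log2 fold change of -0.20 (SE 0.07, adjusted p 0.0531) and RPL21P16 of -0.09 (SE 0.03, adjusted p 0.0968) per the authors' deposited table. RPL21P16, a copy of a gene for a large-subunit protein, had the third-highest mean count of the 96 members.

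Most of the 47 parents were not called, whether or not a copy of theirs was. Of the 31 called members, 24 had a parent that was not called, 6 had a parent that was called higher and 1 had a parent that was called lower. Over all 47 parents 12 were called higher (25.5%) and 2 lower, with a median log2 fold change of 0.03 and a range from -0.37 to 1.05. Of all listed genes 3.64% were called higher, and of those at or above the median mean count 6.02%. The share of parents called higher was thus above that of the listed genes, although their fold changes were mostly small. The difference in log2 fold change, member minus parent, had a median of 0.38 over the 96 members, and 67 members stood above their parent. Among the called members 30 of 31 did, the exception being RPL36AP37. That count adds little, because all 31 were called on a rise and the parents had a median of 0.03. The 95% interval of the member, taken as the authors' estimate with its SE, lay wholly above the parent's interval in 32 members and wholly below it in 2. These intervals treat member and parent as measured apart, whereas both come from the same 4 libraries.

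**Figure D2:**
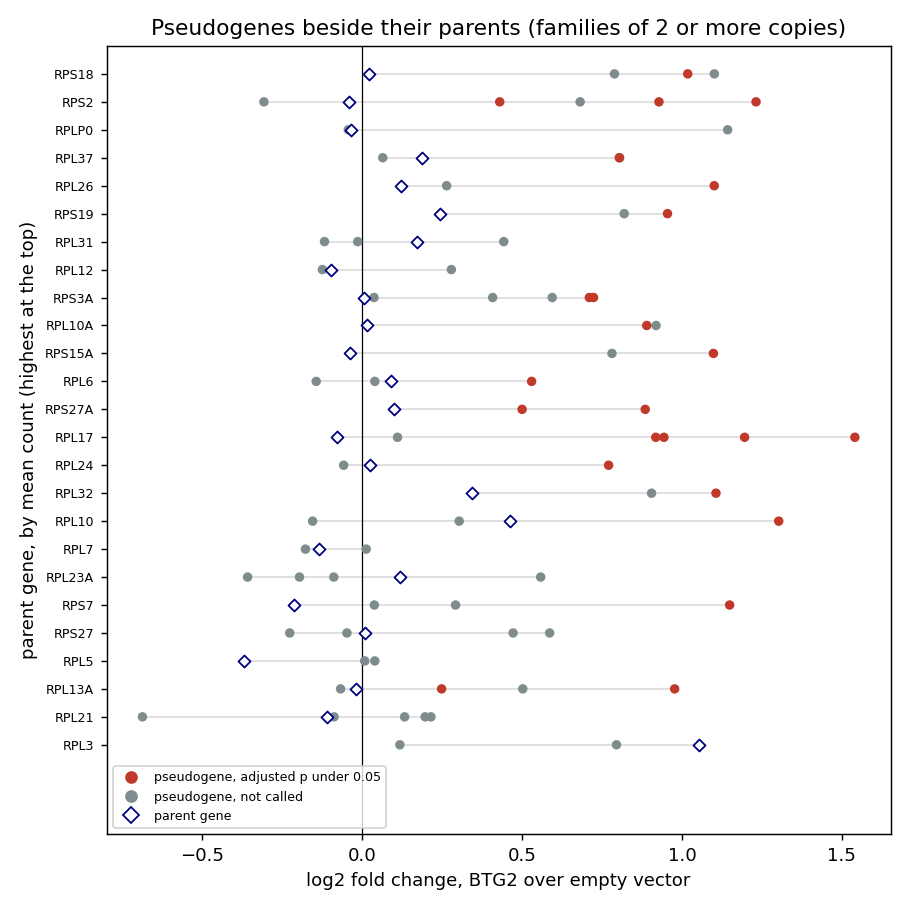
Log2 fold change of BTG2 over empty vector (horizontal axis) for each pseudogene (filled circles, red where called) and its parent gene (open diamonds), 1 line for each of the 25 parents with 2 or more copies, ordered by mean count. Of their 74 copies 24 are red, and the parents' diamonds stay within -0.37 to 1.05 and mostly near 0, while the called copies of parents in the upper rows spread to the right, as far as 1.54.

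Copies of small-subunit genes were called higher in 14 of 34 (41.2%), with a median log2 fold change of 0.68 and positive values in 31. Copies of large-subunit genes were called higher in 17 of 62 (27.4%), with a median of 0.21 and positive values in 45. Among the parents the calls were spread differently. Of the 16 small-subunit parents 2 were called higher (12.5%) and 1 lower (median 0.01), and of the 31 large-subunit parents 10 were called higher (32.3%) and 1 lower (median 0.09). The small-subunit parents also had the higher mean counts, with a median of 72584 against 25292. The difference between the subunits was not tested, and subunit and parent count were not separated here.

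RPS18 codes for a protein of the head of the small subunit and had the highest mean count of all listed genes, 221699. Its copy RPS18P5 had a log2 rise of 1.02 (SE 0.13, adjusted p 9.34e-14) at a mean count of 13081 in the authors' deposited table, where RPS18 itself stood at 0.02 (SE 0.04). RPS18P5 lies inside PCNP on the opposite strand (chr3:101576489-101576947, minus strand, GENCODE release 29 on GRCh38, which is hg38). It matched the RPS18 transcript at 98.7% of aligned positions, with 6 substitutions and a longest identical run of 174 bases. The 90 bases of the coding sequence with the most differences, positions 119 to 208 counted from the first base of the RPS18 start codon, are shown because they hold 3 of the 6 substitutions, with the differing bases in capitals. They differ by T149C, G183T and A208G, with the parent's base first, and those of RPS18P5 lie at chr3:101576740-101576829, minus strand.
RPS18P5: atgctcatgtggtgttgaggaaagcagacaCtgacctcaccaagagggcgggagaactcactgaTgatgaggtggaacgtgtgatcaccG
RPS18: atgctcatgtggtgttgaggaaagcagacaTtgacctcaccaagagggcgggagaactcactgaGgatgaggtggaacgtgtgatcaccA

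RPS2, which codes for a small-subunit protein near the site where messenger RNA enters, had 5 copies, and 3 of them rose. RPS2P55 had a log2 rise of 1.23 (SE 0.13, adjusted p 1.84e-19) and RPS2P46 by 0.93 (SE 0.11, adjusted p 8.14e-15) per the authors' deposited table. RPS2P5 was also called, at 0.43 (SE 0.14, adjusted p 0.0321) per the authors' deposited table. Their mean counts were 365 for RPS2P55, 455 for RPS2P46 and 323 for RPS2P5, each under 0.5% of the 146051 of RPS2. The parent stood at -0.04 (SE 0.03) per the authors' deposited table. The copy least like the parent, RPS2P32, matched it at 87.2% of positions with 75 substitutions. It had the lowest value of the family, -0.31 (SE 0.56, adjusted p 0.893) at a mean count of 18.4 in the authors' deposited table.

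RPS3A, whose protein sits at the small subunit's exit side for messenger RNA, also had 5 copies, all with positive values. RPS3AP47 rose by 0.72 (SE 0.15, adjusted p 9.68e-05) and RPS3AP6 by 0.71 (SE 0.08, adjusted p 4.45e-15) on the log2 scale in the authors' deposited table. The 2 called copies differ in their likeness to the parent, RPS3AP47 with 97.3% identity and RPS3AP6 with 99.5%. RPS3AP26 had the lowest value, 0.04 (SE 0.35, adjusted p 0.988), and RPS3A itself had 0.01 (SE 0.03) per the authors' deposited table. RPS15AP1, a copy of a gene for another small-subunit protein, rose by 1.10 (SE 0.13, adjusted p 1.36e-15) against -0.04 (SE 0.06) for RPS15A in the authors' deposited table. Both copies of RPS27A, which codes for a fusion of ubiquitin with a ribosomal protein, were called higher, RPS27AP5 at 0.89 and RPS27AP16 at 0.50 in the authors' deposited table. RPS27AP5 is annotated as protein coding in GENCODE release 29, the only member that is.

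Copies of RPS7, RPS15 and RPS27 gave a mixed picture. RPS7 codes for a small-subunit protein that can bind the p53 regulator MDM2 and was called lower, at -0.21 (SE 0.06, adjusted p 0.0152) per the authors' deposited table. Its copy RPS7P3 rose by 1.15 (SE 0.20, adjusted p 8.2e-07) per the authors' deposited table, at a mean count of 259. RPS7P1, with a mean count of 10966, stood at 0.04 (SE 0.05, adjusted p 0.801) per the authors' deposited table. RPS15P4 rose by 0.31 (SE 0.05, adjusted p 6.71e-08) at a mean count of 31347, against 0.02 (SE 0.03) for RPS15, a gene for a protein of the small subunit's head, in the authors' deposited table. None of the 4 copies of RPS27, which codes for a zinc-finger protein of the small subunit, was called. The highest was RPS27P19 at 0.59 (SE 0.70, adjusted p 0.799) and the lowest RPS27P8 at -0.23 (SE 0.31, adjusted p 0.844) per the authors' deposited table.

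RPL17, whose protein lines the tunnel through which new protein leaves the ribosome, was the parent with the most called copies. Of its 5 copies 4 were called higher. RPL17P18 had the largest log2 fold change of all 96 members, 1.54 (SE 0.16, adjusted p 1.02e-20) at a mean count of 676 in the authors' deposited table. RPL17P39 rose by 0.94 (SE 0.10, adjusted p 1.84e-19) and RPL17P6 by 0.92 (SE 0.09, adjusted p 3.74e-23) per the authors' deposited table. Their mean counts were 1546 for RPL17P39 and 3211 for RPL17P6. RPL17P36 was called at 1.20 (SE 0.40, adjusted p 0.0393) per the authors' deposited table, at a mean count of 32.7. RPL17P7 was the exception, at 0.11 (SE 0.10, adjusted p 0.672) with a mean count of 599 in the authors' deposited table, where RPL17 stood at -0.08 (SE 0.05) with 47075.

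RPL17P6 and RPL17P7 are equally like the parent, at 99.3% identity with 4 substitutions each, and differ from each other at 4 of 555 positions. Their fold changes differed nonetheless, with intervals that do not overlap, from 0.75 to 1.09 for RPL17P6 and from -0.08 to 0.30 for RPL17P7. RPL17P18, at 97.5% identity with 14 substitutions, differs from both at 16 positions and from RPL17P39 at 18. All of these 4 copies kept an open reading frame over the 184 codons of the parent. Positions 212 to 301 of the coding sequence are shown because this stretch holds the most differences among the 3 copies printed. Capitals mark a base of a copy that differs from RPL17, and in RPL17 a base that differs in at least 1 copy. RPL17P18 (chr3:197850654-197850743, minus strand) carries A225G, A254G, A280G, C291T and A301G, while RPL17P6 (chr1:77129325-77129414, plus strand) and RPL17P7 (chr1:108992493-108992582, plus strand) both carry A225G and G292A and are identical here.
RPL17P18: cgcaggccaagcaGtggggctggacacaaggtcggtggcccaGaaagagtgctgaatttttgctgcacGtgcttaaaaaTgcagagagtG
RPL17P6: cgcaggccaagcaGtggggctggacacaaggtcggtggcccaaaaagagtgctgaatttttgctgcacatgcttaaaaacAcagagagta
RPL17P7: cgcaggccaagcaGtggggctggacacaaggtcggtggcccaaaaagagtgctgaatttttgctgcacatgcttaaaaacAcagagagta
RPL17: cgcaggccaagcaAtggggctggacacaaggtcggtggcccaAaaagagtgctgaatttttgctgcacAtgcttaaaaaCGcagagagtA

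RPL13A codes for a large-subunit protein that is also known, in human monocytes, for silencing the translation of inflammatory messenger RNAs when it is released from the ribosome. It had 4 copies, of which 2 rose. RPL13AP25 had a log2 rise of 0.98 (SE 0.09, adjusted p 2.77e-24) at a mean count of 842, and RPL13AP5 by 0.25 (SE 0.04, adjusted p 7.42e-10) at 10969, in the authors' deposited table. RPL13AP7 had the highest mean count of all 96 members, 94741, and stood at -0.07 (SE 0.04, adjusted p 0.337) per the authors' deposited table. The parent RPL13A had a mean count of 1559 and a log2 fold change of -0.02 (SE 0.11) per the authors' deposited table. Counts of this family were thus assigned almost wholly to copies, 98.6% of the sum over parent and copies. The copy with the most counts was not the one most like the parent. RPL13AP7 matched the RPL13A transcript at 96.9% of positions and RPL13AP5 at 99.5%. Positions 230 to 319 of the coding sequence are shown for the 2 copies with the most counts. Among stretches of that length without gaps, this one holds the most differences from RPL13A summed over both copies. RPL13AP7 (chr21:25362051-25362140, plus strand) carries T263C, A273G, C291T, G292T, T303C and G319C, and RPL13AP5 (chr10:96750517-96750606, plus strand) carries A273G alone, with capitals as before.
RPL13AP7: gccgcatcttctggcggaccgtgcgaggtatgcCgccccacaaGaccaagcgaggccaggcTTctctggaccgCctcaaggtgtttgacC
RPL13AP5: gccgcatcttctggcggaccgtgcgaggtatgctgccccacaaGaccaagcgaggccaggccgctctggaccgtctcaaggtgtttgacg
RPL13A: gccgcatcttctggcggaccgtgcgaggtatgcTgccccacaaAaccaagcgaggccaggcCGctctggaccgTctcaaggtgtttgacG

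Copies of other large-subunit genes were called higher too. RPL10AP6 had the largest test score of all members, the fold change over its SE, and rose by 0.89 (SE 0.08, adjusted p 2.32e-29) against 0.02 (SE 0.04) for RPL10A, whose protein forms the mobile stalk by which spent transfer RNA leaves, in the authors' deposited table. RPL13P12 rose by 1.12 (SE 0.11, adjusted p 2.16e-20) against 0.09 (SE 0.03, adjusted p 0.0285) for RPL13, also called higher, in the authors' deposited table. RPL32P18 rose by 1.11 (SE 0.10, adjusted p 2.49e-24), and its parent RPL32 rose too, by 0.34 (SE 0.03, adjusted p 7.99e-21), per the authors' deposited table. RPL13 and RPL32 both code for proteins of the large subunit. RPL6P27, at a mean count of 23285, rose by 0.53 (SE 0.10, adjusted p 6.3e-06) against 0.09 (SE 0.03, adjusted p 0.0123) for RPL6 in the authors' deposited table. Its sister copies RPL6P10, at -0.14 (SE 0.64), and RPL6P19, at 0.04 (SE 0.65), had low mean counts and were not called. The called members not described so far were RPL10P3 (1.30), RPL36P14 (1.24), RPL26P6 (1.10), RPS20P14 (0.96), RPS19P3 (0.95), RPL37P2 (0.80), RPL24P8 (0.77), RPL14P1 (0.74) and RPS23P8 (0.69), with log2 fold changes from the authors' deposited table.

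RPL36AP37 was called with the smallest log2 fold change of the 31, 0.19 (SE 0.05, adjusted p 0.00568) at a mean count of 56821 in the authors' deposited table. Its parent RPL36A, a gene on chromosome X for a protein near the exit site of transfer RNA, had 0.24 (SE 0.18, adjusted p 0.567) at a mean count of 179 in the authors' deposited table. The copy lies on the strand of PLEKHA7, within that gene (chr11:16974693-16975013, minus strand), and is identical to the parent transcript over all of its 321 bases. Over that stretch no read can tell the copy from the parent, and 99.7% of the family's count was assigned to RPL36AP37.

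Of the 10 copies with a mean count above their parent's, 3 were called, none by more than 0.31, and 7 were not. RPL21P16 is also identical to its parent, over 483 bases, and its log2 fold change of -0.09 stood beside -0.11 (SE 0.11) for RPL21, which had a mean count of 664, in the authors' deposited table. The other 4 copies of RPL21 were not called, from RPL21P119 at 0.22 (SE 0.47, adjusted p 0.916) to RPL21P53 at -0.69 (SE 0.66, adjusted p 0.711), the lowest value of all members, in the authors' deposited table. RPL21P28, at a mean count of 2340, had 0.20 (SE 0.11, adjusted p 0.334) per the authors' deposited table. RPL15P3 stood at -0.02 (SE 0.06, adjusted p 0.952), against 0.08 (SE 0.04) for RPL15, in the authors' deposited table. RPL15 codes for a protein of the large subunit. In the RPL23A family, named for a protein at the mouth of the exit tunnel where the signal recognition particle docks, 0 of 4 copies were called. Its highest was RPL23AP74 at 0.56 (SE 0.62, adjusted p 0.774) per the authors' deposited table. The lowest was RPL23AP7 at -0.36 (SE 0.65, adjusted p 0.893), under the identifier with a mean count of 15.7. The other RPL23AP7 identifier, with a mean count of 74.9, stood at -0.09 (SE 0.26, adjusted p 0.946) per the authors' deposited table.

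RPL3, which codes for a protein beside the catalytic centre of the ribosome, was the parent with the lowest mean count, 31.3. It had a log2 fold change of 1.05 (SE 0.41, adjusted p 0.0968), against 0.12 (SE 0.18, adjusted p 0.862) for its copy RPL3P2 at a mean count of 5057, in the authors' deposited table. RPL3P2 is less like its parent than most members, at 94.9% identity with 53 substitutions, and lies on chromosome 6 within the annotated span of HLA-B, on the other strand. With its sister copy it held 99.4% of the family's count.

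In total 13.5% of the counts assigned to the 96 members and their 47 parents fell on the members, which held 3.51% of the counts of all listed genes. The 8 members with the highest mean counts held 79.1% of the members' sum. In 8 families the copies held over 50% of the family's count. Besides RPL36A, RPL3 and RPL13A these included RPL21 (98.1%), RPS7 (79.7%), RPS15 (66.5%) and RPL15 (58.5%).

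Set against the parent per kilobase of the 2 aligned transcripts, 14 of 95 members with a transcript had a higher level than their parent. On the count itself 10 members stood above their parent. The ratio of levels per kilobase, copy over parent, was 424 for RPL36AP37, 193 for RPL3P2, 117 for RPL13AP7 and 62.3 for RPL21P16. It was 13.6 for RPL13AP5 and between 1.88 and 4.60 for RPS7P1, RPL21P28, RPS15P4 and RPL15P3. Members above their parent also included RPL3P4, with a ratio of 1.52, and RPL13AP25, with 1.04. RPS18P5 had a ratio of 0.08, RPL17P18 of 0.02 and RPL17P7 of 0.02, and other members lay both above and below these values. RPL17P18 and RPL17P7 thus had like ratios, and only RPL17P18 was called; the difference between them was not tested beyond their intervals, from 1.24 to 1.85 and from -0.08 to 0.30, which do not overlap.

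Among the 43 members with a mean count of at least 151, those holding under 10% of their parent's count had larger median fold changes than the others, and over all 96 members the order was less regular. Of the 43, those holding 0.1 to 1% of the parent's count were called higher in 5 of 7 (median log2 fold change 0.74). Those holding 1 to 10% were called in 13 of 16 (81.2%, median 0.90). Of the 10 holding 10 to 100%, 4 were called (median 0.08), and of the 10 above 100%, 3 were called (median 0.08, range -0.09 to 0.31). Over all 96 members, including those of low count, the same classes gave 8 of 23 (0.1 to 1%, median 0.43), 13 of 23 (1 to 10%, median 0.71), 4 of 12 (10 to 100%, median 0.32) and 3 of 10 (above 100%, median 0.08). The 28 members under 0.1% of the parent's count gave 3 calls, with a median of 0.37. These shares compare counts and not levels per length.

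**Figure D3:**
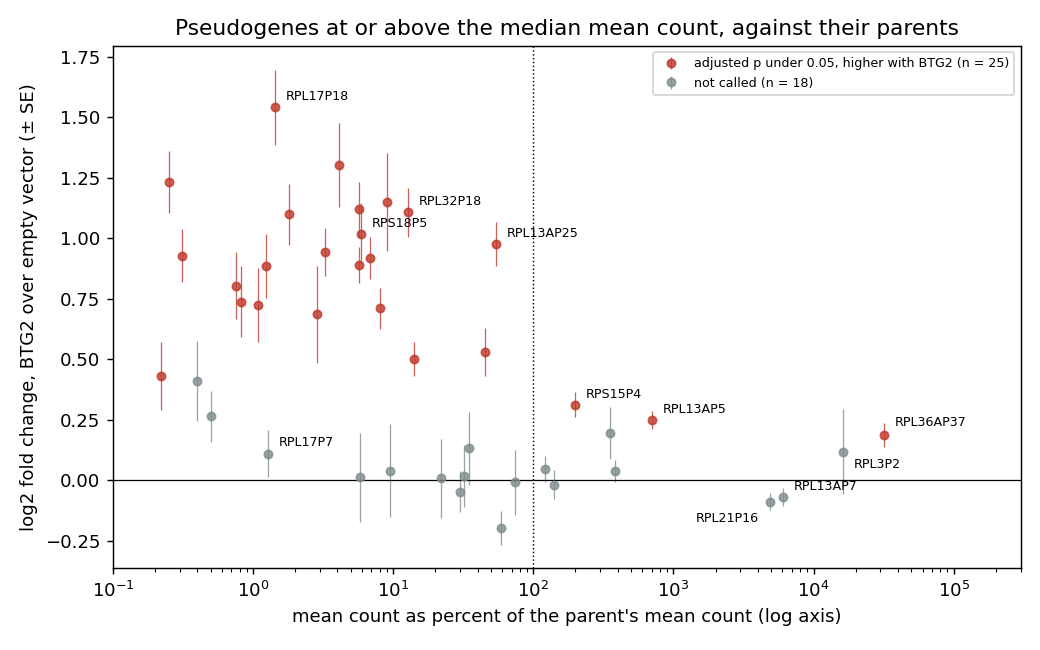
Log2 fold change of BTG2 over empty vector (vertical axis, bars ± the authors' SE) against the mean count as a percentage of the parent's mean count (horizontal log axis) for the 43 pseudogenes at or above the median mean count. Called members are red, and the dotted line marks a count equal to the parent's. Left of 10% most points are red with a median of 0.90 in the 1 to 10% class, and right of the line the points lie between -0.09 and 0.31.

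Most calls fell on copies of highly counted parents. Of 63 members whose parent had a mean count above 10000, a limit chosen after seeing the values, 27 were called higher (42.9%, median log2 fold change 0.69). Of 33 members whose parent was at or under 10000, 4 were called higher (12.1%, median 0.04), namely RPS7P3, RPL13AP25, RPL13AP5 and RPL36AP37. Among members at or above the median mean count the same split gave 21 of 25 (84%, median 0.80) and 4 of 18 (22.2%, median 0.04). Across these 43 members Spearman's rho with the log2 fold change was 0.57 for the parent's mean count and -0.57 for the count as a percentage of the parent's. Over all 95 members with a sequence these values were 0.37 and -0.12. The percentage has the parent's mean count as its denominator, so both measures overlap and are not separate patterns. Over the 43, rho was 0.06 for the parent's own log2 fold change and -0.15 for the member's own mean count. Members share parents and come from the same 4 libraries, so these correlations describe these points and carry no test.

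Sequence was read from GENCODE release 29 for 95 members, all but the second RPL23AP7 identifier. The copies matched their parent transcript at 86.5 to 100% of aligned positions, with a median of 98.3%, and 90 of 95 aligned over more than 90% of their length. Nearly all were intronless, 92 having 1 exon. The annotation called 89 processed pseudogenes, 5 transcribed processed pseudogenes and 1 protein coding. They lay on 23 chromosomes, and 22 carry another name in that release.

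Fold changes had a lower median among the copies most like their parent. Likeness also went with the parent's count, and the 2 were not separated here. Median identity was 97.5% in members whose parent had a mean count above 10000 and 99.3% in those whose parent was at or under it. Of 28 members with at least 99% identity 6 were called higher (21.4%, median log2 fold change 0.13), against 20 of 38 between 97 and 99% (52.6%, median 0.53). Below 97% 5 of 29 were called, with a median of 0.59 and a median mean count of 25.7. The 4 members without any difference from the parent were RPL36AP37, RPS28P7, RPL21P16 and RPL39P3, with values from -0.47 to 0.19. The longest stretch without a difference gave a like picture. Where it was shorter than the 150 bases of a read as the labels give it, 17 of 47 were called (median 0.72), and where it was at least that long, 14 of 48 (median 0.23). Among the 43 members at or above the median mean count these were 11 of 16 (median 0.84) and 14 of 27 (median 0.25). Spearman's rho with the log2 fold change over those 43 was -0.41 for identity and -0.48 for the longest identical stretch, and identity and stretch were themselves related with a rho of 0.79. Over all 95 members with a sequence the values were -0.32 and -0.36. The labels describe 150-base paired reads while the study's title speaks of long reads, and the one behind these values was not given in the sources used here.

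**Figure D4:**
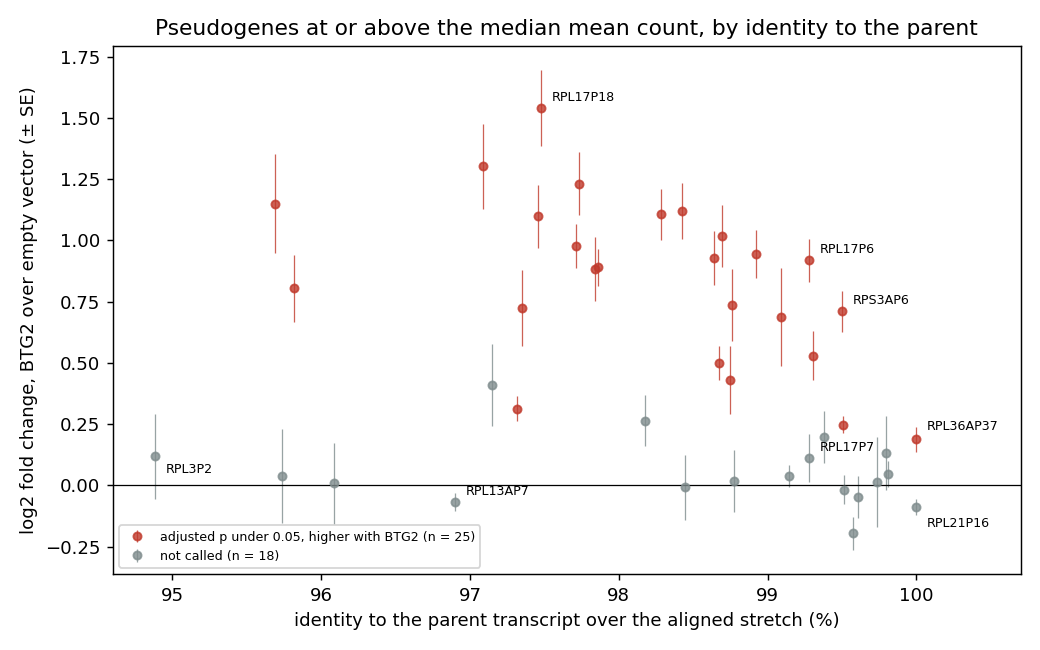
Log2 fold change of BTG2 over empty vector (vertical axis, bars ± the authors' SE) against the percent identity to the parent transcript (horizontal axis) for the 43 pseudogenes at or above the median mean count, red where called. Points above 0.75 lie between 95.7 and 99.3% identity, and both copies at 100% lie near 0, RPL36AP37 at 0.19 and RPL21P16 at -0.09.

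Copies with and without an open reading frame were among those called. The frame of the parent's start codon ran without a stop over the parent's length in 49 of 95 copies, of which 15 were called higher (median 0.28), against 16 of the 46 others (median 0.47). Among members at or above the median mean count the numbers were 13 of 24 (median 0.22) and 12 of 19 (median 0.53). Over all 95 copies the open ones were also the more faithful, with a median identity of 98.9%, against 97.1% in the others. Among members at or above the median mean count these medians were 99.3% and 97.3%.

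Calls were found wherever the copies lay. Of 42 members in no other annotated gene 15 were called higher (35.7%, median 0.50), of 32 inside a gene on the opposite strand only 8 were (25%, median 0.13), and of 21 inside a gene on the same strand 8 were (38.1%, median 0.56). Without the members inside a gene on the same strand, 23 of 74 were called higher. Use of the strand in counting was not given in the sources used here, so reads of an overlapping gene on either strand may be included. Of the 21 members with a same-strand host, 10 have a host that is itself listed, of which 2 were called higher, 2 lower and 6 not called. The 2 called members among these were RPS7P3, inside PCNX2, and RPS19P3, inside SNX6. PCNX2 had a log2 fold change of 0.98 (SE 0.70, adjusted p 0.541) at a mean count of 13.6, and SNX6 of -0.19 (SE 0.14, adjusted p 0.557) at 304, in the authors' deposited table.

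Other listed genes that the annotation types as pseudogenes were counted in the same way, and their difference from the members was not tested. Of 130 other listed genes annotated as pseudogenes, 16 were called higher (12.3%) and 6 lower, with a median log2 fold change of 0.15. Of the 34 at or above the median mean count 11 were higher and 6 lower (median 0.14). The deposited table gives 35 of the 130 no symbol, so their parents are unknown here, and 11 of the 16 higher calls were among them (31.4%, median 0.76). Whether any of these 35 are copies of ribosomal protein genes was not determined. Of the 95 with a symbol, 5 were called higher (5.26%) and 5 lower, with a median of 0.05. A parent could be found by name among the listed genes for 66, of which 5 were called higher and 3 lower (median 0.01). Only 5 of these had a parent with a mean count above 10000. All 5 had positive values (median 0.91) and 2 were called higher, against 3 higher and 3 lower of 61 with a less counted parent (median 0.00). Both called copies, EEF1B2P3 and EEF1B2P6, and the uncalled EEF1B2P2 share the parent EEF1B2. The other copies among the 5, TMSB4XP4 (0.71) and TUBBP1 (0.70), were not called, so the calls in this class come from 1 parent.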

How the data were processed

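Gene expression was compared in MOLM13 cells between 2 libraries with BTG2 and 2 with the empty vector, grouped by their titles. The submitters' processing notes name minimap2 and the hg38 build, with no version or role. The deposited table is the authors' own comparison. Its baseline column holds a signal that is never negative, which the file headers name as the authors' mean over libraries of normalized counts. The authors deposited fold changes with their errors as log2 values. The deposited test statistic is a score equal to the fold change over its standard error within 2.72e-07. Recomputing the Benjamini-Hochberg adjustment from the deposited p-value over the 11597 genes gave the authors' adjusted values within 1.48e-06. The program, annotation, normalization and filter were not given in the sources used here. Depth is unknown, and a count test planned for counts per library was not run.

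A member was called at the authors' adjusted p under 0.05, and no test was added. Members and lists were chosen with earlier results of these data known. Of the listed genes 11398 matched GENCODE release 29 on GRCh38, which is hg38, by identifier. Each member's transcript was aligned to its parent's principal coding transcripts with blastn (BLAST 2.17.0, E-value limit 1e-05), and identity is over aligned columns, gaps included. The members named are the 12 with the largest absolute score, the 8 with the highest mean count, the highest and lowest fold change in families of at least 4, those with a mean count above their parent's, and the parents of all these. 1 of these is not reported here. Any other member named was chosen after its values were seen. The calling and substitution steps were tested on simulated data. Alternatives are in the closing section. Scripts ran in Python 3.11.15 (pandas 2.3.3, numpy 2.4.6, scipy 1.17.1, matplotlib 3.10.9).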

Additional observations from a re-analysis of the deposited data

How the results depend on the processing

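The 31 members called higher became 11 when a log2 fold change of at least 1 was also required, and 20 of 47 when only the member with the highest mean count of each parent was kept. They numbered 26 at an adjusted p under 0.01, 31 at 0.1 and 31 after recentring on the median gene, which moved values by 0.00. They were 30 among the 94 members that the annotation types as pseudogenes. Members called lower numbered 0 under every setting tried but an adjusted p under 0.1, where 2 were. The number of members above their parent was 10 on the mean count and 19 per kilobase of annotated exons. It was 14 per kilobase of the aligned transcripts, an alternative chosen after seeing the data. The median log2 fold change ran from 0.34 to 0.43, the mean weighted by 1 over the squared SE was 0.27, and the median of member minus parent from 0.29 to 0.41 over the alternatives. Of the 33 members that the naming rule picks, 33 stayed on their side of the threshold at 0.01 and after recentring, and 32 at 0.1. The 5 that lost the call at 0.01 were RPL17P36, RPS2P5, RPL24P8, RPL26P6 and RPS23P8. Also chosen after seeing the data were recentring on the more abundant genes, those with mean counts from the median upwards, which moved values by 0.03, left 31 called higher and turned RPL15P3, not called, to 0.01, and leaving out members inside a gene on the same strand, which left 23 of 74. No paired analysis was possible because the deposited table holds no values per library, and for the same reason no library could be left out. Precision limits the calls among members of low count: the median SE was 0.47 in the 53 members below the median mean count of all listed genes and 0.11 in the 43 others.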

Other observations

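Copies of the translation elongation factor genes EEF1B2 and EEF1A1, which code for a nucleotide exchange subunit and for the factor that brings transfer RNA to the ribosome, were picked by name among other pseudogenes, with their values known. The 3 copies of EEF1B2 had positive log2 fold changes in the authors' deposited table, and 2 were called higher. These same copies were already counted above among the other pseudogenes with a highly counted parent. EEF1B2P3 rose by 0.91 (adjusted p 1.07e-29) at a mean count of 1479 and EEF1B2P6 by 1.25 (adjusted p 0.000293) at 90.5, per the authors' deposited table. EEF1B2P2 had 2.11 (SE 0.86, adjusted p 0.123) at a mean count of 8.56 in the authors' deposited table. EEF1B2 itself had a mean count of 34323. Of the 2 copies of EEF1A1, EEF1A1P6 had 0.51 (SE 0.27, adjusted p 0.303) and EEF1A1P5 had 0.01 (SE 0.13, adjusted p 0.992) per the authors' deposited table, and neither was called. EEF1A1 had a mean count of 3588, below that of EEF1B2. Copies of genes for translation initiation factors and for a mitochondrial ribosomal protein were not called either. They had log2 fold changes of 0.00 (EIF3EP1, SE 0.40), 0.01 (EIF3LP1, SE 0.45), 0.02 (EIF4A1P10, SE 0.26), -0.10 (EIF4A2P4, SE 0.44) and -0.23 (MRPL45P2, SE 0.41) in the authors' deposited table. Their mean counts were low, between 28.0 and 71.3, and those of their parents lay between 56.8 and 2071.

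Among members inside a gene on the same strand, 4 lie in a host that was itself called, and none of these members was called. RPL9P7 stood at 0.03 (SE 0.25) inside APOO, which was listed at 10.62 (SE 1.46), and RPL12P16 at 0.28 (SE 0.57) inside NBEAL1, which rose by 0.62 (SE 0.09), per the authors' deposited table. RPL32P29 stood at 0.90 (SE 0.63) inside RPS29, which fell by 0.23 (SE 0.06), and RPS26P47 at 0.90 (SE 0.45) inside GGACT, which was listed at -9.06 (SE 1.49), per the authors' deposited table. Fitted values of that size do not measure a fold.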
